A study of Mus musculus with 20 samples.

Results

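The transcripts described here encode 10 components of the Notch pathway: the receptors Notch1, Notch2 and Notch3, the ligands Jag1, Jag2 and Dll1, the nuclear effectors Rbpj and Maml2, and the target genes Hes1 and Hey1. They were taken by gene symbol from a table of read counts for 25719 genes, in which all 10 had a row, and 9 of the 10 passed the filter on low counts that left 12424 genes for testing. The exception was Hey1. The libraries came from keratinocytes sorted out of ear and dorsal skin of 20 mice. All mice carried floxed Cyp11b1 alleles (Cyp11b1 L2/L2), and Cyp11b1 encodes the enzyme that completes glucocorticoid synthesis. The knockout mice (cKO) also carried K14-CreERTam, a Cre recombinase driven by the promoter of the basal keratinocyte gene Krt14 and activated by tamoxifen. The controls were littermates without Cre, so that the presence of Cre and the loss of Cyp11b1 cannot be told apart. All 20 mice received tamoxifen on 5 days, in ethanol on dry-shaved skin (topical) or in an oil and ethanol mixture by intraperitoneal injection (systemic), and cells were taken on day 6. The 4 groups of 5 mice were topical control, topical cKO, systemic control and systemic cKO. Route went with shaving and vehicle, which cannot be told apart from it. The study was set up to compare local with systemic loss of glucocorticoid synthesis in the skin.

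Notch receptors are single-pass proteins of the cell surface that are activated by ligands of the Jagged and Delta-like families on a neighbouring cell. Binding exposes the receptor to ADAM proteases and then to the gamma-secretase complex, which releases the intracellular domain. This domain enters the nucleus and joins the DNA-binding protein RBPJ and a Mastermind coactivator such as MAML2 to switch on genes that include the Hes and Hey repressors. In the epidermis the pathway is known for moving basal keratinocytes towards differentiation, and loss of epidermal Notch signalling is known to raise the cytokine gene Tslp. Notch1 has also been described as a target gene of the p53 protein in keratinocytes.

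Start-site windows from RefSeq (GRCm38.p6) were found for 8 of the 10 genes, all but Hes1 and Hey1. The receptor windows are shown because Notch1 was the receptor that changed with genotype and Notch2 and Notch3 were those that did not pass the test. Each sequence runs 5′ to 3′ on the gene's strand from 250 to 12 bases before the annotated start, with each GGGCGG (the GC box bound by SP1-type factors) in capitals, as CCGCCC where it lies on the other strand. The Notch1 stretch is chr2:26503834-26504072 on the minus strand, the Notch2 stretch is chr3:98013288-98013526 on the plus strand, and the Notch3 stretch is chr17:32166902-32167140 on the minus strand.
Notch1: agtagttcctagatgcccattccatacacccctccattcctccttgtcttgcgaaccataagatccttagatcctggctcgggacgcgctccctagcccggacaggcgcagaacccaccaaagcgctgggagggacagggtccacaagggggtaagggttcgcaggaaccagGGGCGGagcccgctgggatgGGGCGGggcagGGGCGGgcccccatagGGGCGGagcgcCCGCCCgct
Notch2: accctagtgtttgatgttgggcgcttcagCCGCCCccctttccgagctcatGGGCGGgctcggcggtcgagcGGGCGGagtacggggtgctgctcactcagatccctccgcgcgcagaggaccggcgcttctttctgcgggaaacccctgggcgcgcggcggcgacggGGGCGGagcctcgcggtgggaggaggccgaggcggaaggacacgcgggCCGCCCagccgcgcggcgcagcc
Notch3: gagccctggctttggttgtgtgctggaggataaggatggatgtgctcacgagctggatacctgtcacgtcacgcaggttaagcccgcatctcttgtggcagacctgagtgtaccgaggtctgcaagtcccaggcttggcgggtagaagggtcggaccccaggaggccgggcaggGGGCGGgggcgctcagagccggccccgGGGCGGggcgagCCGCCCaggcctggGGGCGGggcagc
The Notch1, Notch2 and Notch3 stretches held 5, 5 and 4 copies of GGGCGG, a motif chosen for display after the sequences were read. At least 1 copy was present in 35.7% of the 32851 RefSeq windows of 300 bases. That share does not count windows with several copies. Their GC content was 66.1%, 74.1% and 68.6%. Neither TGGGAA, the core of the RBPJ motif, nor TGTTCT, the core of the glucocorticoid receptor element, was present on either strand in the 300-base windows of the 3 receptors. TGGGAA was in 25.6% of all windows, its longer form GTGGGAA in 6.38% and TGTTCT in 19.0%. Among the other members, TGGGAA matched in windows of Rbpj and Maml2, and TGTTCT in a window of Dll1. GGGCGG was not particular to the receptors, with 5 copies in the Jag2 window and 1 copy in a window of Rbpj. These matches are letters in a window and no measurement of binding.

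Library totals ran from 11.6 to 50.1 M counts. Reads of Cyp11b1 were too few to check the genotype labels, with 9, 7, 2 and 4 reads in all over the 5 libraries of topical control, topical cKO, systemic control and systemic cKO. The summed level of 8 keratinocyte markers was 61000 to 150000 CPM (reads per M counts of the library, after TMM scaling), against 1.58 to 24.5 CPM for 7 fibroblast markers, 1.98 to 11.5 CPM for 7 endothelial markers and 13.0 to 31.2 CPM for 7 mural-cell markers, the mural cells of vessels being a known site of Notch3. Markers of sebaceous gland were higher, with 268 to 3710 CPM over 7 genes, of which 0 were called between the genotypes or between routes in controls and 1 was lower after injection in cKO; their part in the member values was not tested. Libraries stood apart in 12 predicted genes called satellite-like in earlier work on these data, a list chosen after the libraries had been seen. Their summed level was 79.4 to 11700 CPM in the 5 systemic controls and 37300 CPM in systemic cKO 2, and 0.839 to 42.5 CPM in the other 14 libraries.

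Per kilobase of exon, Hes1 was the most abundant of the 10 transcripts, with a mean of 36.0 CPM per kb over the 20 libraries, followed by Notch1 at 14.2, Jag2 at 6.48 and Dll1 at 5.62 CPM per kb. Notch2 averaged 3.94, Jag1 2.98 and Notch3 2.01 CPM per kb, and the nuclear effectors were low, with 0.522 CPM per kb for Maml2 and 0.480 for Rbpj. Hey1 was near the limit of detection at 0.0908 CPM per kb. Adjacent levels in this order often crossed within a library. Hes1 exceeded Notch1 in 19 of 20 libraries and Notch3 exceeded Maml2 in all 20, whereas Dll1 exceeded Notch2 in 16 and Maml2 exceeded Rbpj in 13. By group, Maml2 was the higher in 5, 4, 4 and 0 of 5 libraries of topical control, topical cKO, systemic control and systemic cKO. This order rests on exon models of 12.75 kb for Rbpj and 6.598 kb for Maml2. Before division by length, Rbpj had the higher mean CPM in each group, and neither gene was called in any comparison. Length-corrected levels assume that reads cover the whole exon model, which for Notch1 is 14.2 kb and for Hes1 2.04 kb.

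**Figure D1:**
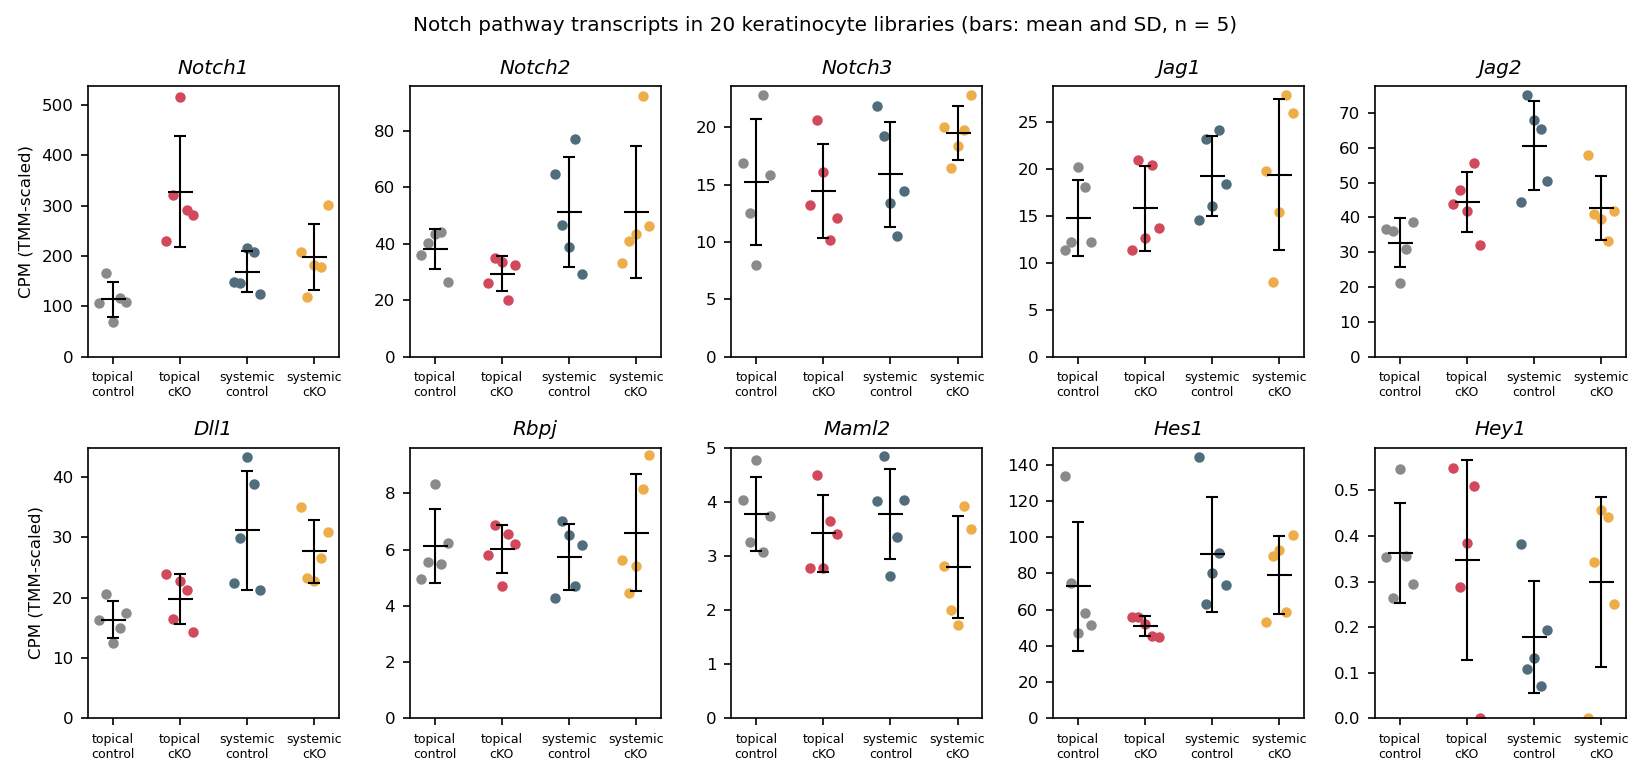
Level of each of the 10 Notch pathway transcripts in CPM (linear axes from 0, a separate scale per panel) in the 4 groups; points are libraries and bars the mean and SD of 5 mice. The 5 topical cKO libraries lie between 229.8 and 515 CPM of Notch1, above all 5 topical controls, while Jag2 and Dll1 are higher in the systemic controls than in the topical controls.

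Notch1 was the one member that changed with genotype, and it did so after topical tamoxifen. Its level in the topical controls 1, 3, 5, 6 and 7 was 107, 167, 69.0, 118 and 109 CPM. In the topical cKO libraries 2, 3, 4, 5 and 7 it was 229.8, 322, 515, 291 and 281 CPM. The groups did not overlap, with all 5 cKO values above all 5 control values. Notch1 (ENSMUSG00000026923, chr2:26457903-26516663 on the minus strand) was 2.88-fold higher in topical cKO, a log2 fold change of 1.52 ± 0.27 (SE, n = 5 against 5; 95% interval 0.97 to 2.08), with an adjusted p of 0.0104 by edgeR's quasi-likelihood test with Benjamini-Hochberg adjustment. It was 1 of 9 members called, at an adjusted p under 0.05, against 0.129% of all 12424 genes (16 genes, all of them higher). In bulk RNA, a change in the number of cells that express Notch1 and a change in its RNA per cell cannot be told apart. These values rest on 1011 to 3179 Notch1 reads per library in topical control and 3230 to 11380 in topical cKO, so counting error was small beside the spread between mice.

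The call on Notch1 lay near the threshold when single controls were left out. The adjusted p was 0.0521 without topical control 1, 0.0527 without topical control 5 and 0.0565 without topical control 7, and under 0.05 in the other 7 of 10 such fits, with log2 fold changes from 1.30 to 1.70 over all 10. The lowest of these came without topical cKO 4, the library with the highest Notch1 level (adjusted p = 0.0497). Suprabasal keratin and cornified-layer transcripts moved beside Notch1 in the same libraries without passing the test: the summed level of 7 suprabasal genes had a median of 30600 CPM (23700 to 34000) in topical control and 19100 CPM (10500 to 30400) in topical cKO, 0 of the 7 were called, and all 7 had negative log2 fold changes, with a median of -0.33. Of the 6 basal genes 0 were called and all 6 were positive, with a median of 0.20. The part of these shifts in the Notch1 result was not tested. The transcripts 0610009E02Rik and Gm13568, annotated on the opposite strand, share 1068 and 414 exon bases with Notch1, and neither is a row of the count table. The library kit does not mark strand, so their reads and those of Notch1 cannot be told apart.

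**Figure D2:**
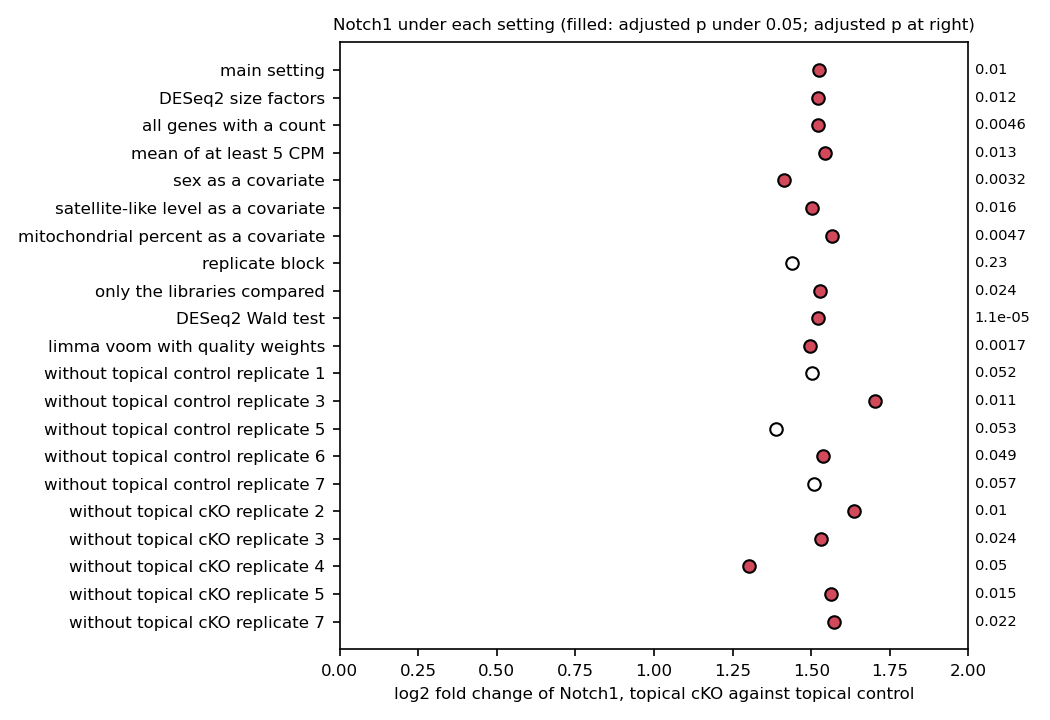
Log2 fold change of Notch1 between topical cKO and topical control (horizontal axis from 0) under the main and each other setting, filled where the adjusted p, printed at the right, is under 0.05. All estimates lie between 1.30 and 1.70, and the open points are the fits without topical control 1, 5 or 7 and the fit with the replicate number as a block.

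After systemic tamoxifen Notch1 did not separate the genotypes. The systemic controls 1, 3, 4, 5 and 6 had 148, 147, 215, 208 and 124 CPM, and the systemic cKO libraries 2, 4, 5, 6 and 7 had 209, 119, 183, 179 and 301 CPM. These ranges overlapped from 124 to 215 CPM. The log2 fold change was 0.23 ± 0.26 (95% interval -0.31 to 0.78, adjusted p = 0.739, edgeR). The interaction, which asks whether the genotype effect differs between routes, was -1.29 ± 0.37 for Notch1 with an unadjusted p of 0.00226 and an adjusted p of 0.119, so that a difference between the routes was not called. Between the routes, Notch1 was 0.56 ± 0.26 higher on the log2 scale after injection in controls (adjusted p = 0.140) and -0.73 ± 0.26 in cKO (adjusted p = 0.0911), neither of them called. These comparisons share libraries with each other and are not independent.

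The other receptors did not pass the test in topical cKO. Notch2 had 26.6 to 44.1 CPM in topical control and 20.2 to 35.0 CPM in topical cKO, a log2 fold change of -0.37 ± 0.27 with an adjusted p of 0.990. Notch3 had 7.99 to 22.9 CPM and 10.2 to 20.6 CPM in the same groups, with a log2 fold change of -0.08 ± 0.23. Neither passed the test in any of the 5 comparisons. The largest difference was that of Notch2 between routes in cKO, 0.80 ± 0.27 with an adjusted p of 0.0628, and it rested in part on systemic cKO 6, whose 92.3 CPM was the highest of the 20 libraries; without it the log2 fold change was 0.48. Without systemic cKO 2, the library with satellite-like signal, that of Notch2 was 0.92 with an adjusted p of 0.0377, and with the satellite-like level as a covariate its adjusted p was 0.0460.

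In the make-up of the receptor transcripts, the topical cKO libraries stood outside the range of the others. Per kilobase, Notch1 made up 58.0%, 69.0%, 49.1%, 54.5% and 63.3% of the Notch1 to Notch3 signal in the topical controls. In topical cKO its share was 79.6% to 87.6%, with a median of 81.4%, above every other library of the study. In systemic control the Notch1 share was 54.4% to 74.2%, and in systemic cKO it was 53.3% to 74.8%, so these overlapped each other and the topical controls. The Notch2 share was 20.5% to 40.9% in topical control and 7.57% to 12.5% in topical cKO. This ratio within a library does not depend on the scaling between libraries, but it does not show which receptor changed. It uses the same Notch1 reads as the test above and adds no independent support.

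**Figure D3:**
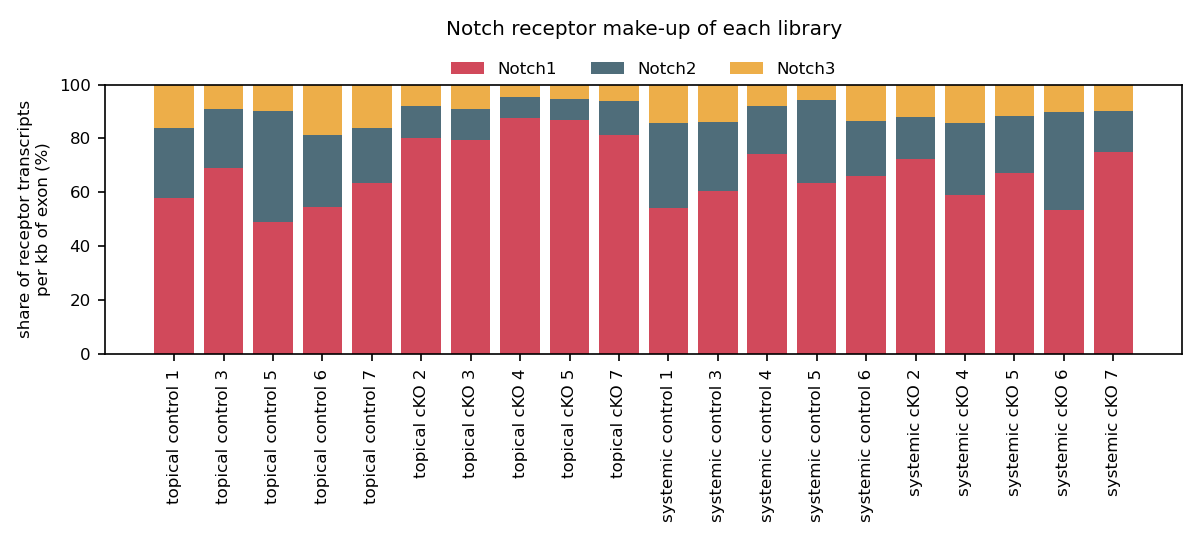
Share of Notch1, Notch2 and Notch3 in the summed receptor signal per kb of exon, in percent, for each of the 20 libraries. Notch1 takes 79.6% to 87.6% in the 5 topical cKO libraries and at most 74.8% in the other 15.

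Among the ligands, Jag2 and Dll1 were higher after injection than after topical treatment in the controls. Jag2 had 36.7, 36.1, 21.2, 31.0 and 38.8 CPM in the topical controls 1, 3, 5, 6 and 7, and 44.5, 75.0, 67.9, 65.3 and 50.5 CPM in the systemic controls 1, 3, 4, 5 and 6. The groups did not overlap. Its log2 fold change was 0.89 ± 0.19 (1.85-fold, adjusted p = 0.00304, edgeR). Dll1 had 16.3, 20.6, 12.4, 14.9 and 17.4 CPM in the topical controls and 22.3, 30.0, 43.3, 38.8 and 21.2 CPM in the systemic controls. These groups did not overlap either, although systemic control 6 lay only just above topical control 3. The log2 fold change of Dll1 was 0.93 ± 0.20 (1.90-fold, adjusted p = 0.00346). Jag2 (ENSMUSG00000002799) lies at chr12:112907819-112929776 and Dll1 (ENSMUSG00000014773) at chr17:15367354-15376872, both on the minus strand, and Dll1 shares 867 exon bases with the opposite-strand gene A930024N18Rik, whose reads cannot be told apart from its own.

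These 2 of 9 members (22.2%) stood against 18.3% of all genes called between the routes in controls, so the members' share was near the background. The calls were present in all 10 fits that left out 1 library, with adjusted p from 0.00156 to 0.0115 for Jag2 and from 0.00185 to 0.0136 for Dll1. With the satellite-like level as a covariate, Jag2 was at 0.50 (adjusted p = 0.369) and Dll1 at 0.70 (adjusted p = 0.249), and the share of all genes called fell to 0.95%. All 5 systemic controls were above all 5 topical controls in that level, so route and satellite-like signal cannot be told apart in controls.

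In cKO the route comparison shared no library with this one, and there the Jag2 values of the routes overlapped. It had 44.0, 47.9, 42.0, 55.7 and 32.2 CPM in the topical cKO libraries 2, 3, 4, 5 and 7 and 58.0, 40.9, 39.5, 33.2 and 42.0 CPM in the systemic cKO libraries 2, 4, 5, 6 and 7. The highest systemic cKO value was that of library 2, the one with satellite-like signal. The log2 fold change was -0.06 ± 0.19 (95% interval -0.45 to 0.33, adjusted p = 0.886). Dll1 was at 14.3 to 23.9 CPM in topical cKO and 22.7 to 35.1 CPM in systemic cKO, again highest in systemic cKO 2, with a log2 fold change of 0.48 ± 0.20 and an adjusted p of 0.140. Without systemic cKO 2 that of Dll1 was 0.39. None of the 9 members was called between the routes in cKO, against 9.22% of all genes. At an unadjusted p under 0.05 there were 4 of 9 (Notch1, Notch2, Dll1 and Hes1), against 23.1% of all genes at that threshold. The DESeq2 Wald test called 2 of them, Notch1 and Notch2, and 12.4% of all genes.

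Between genotypes, Jag2 went in opposite directions by route without passing the test. It was 0.44 ± 0.19 on the log2 scale in topical cKO against control (adjusted p = 0.808) and -0.51 ± 0.19 in systemic cKO against control (adjusted p = 0.178), with an interaction of -0.95 ± 0.27 (adjusted p = 0.109). Without systemic cKO 2 the systemic difference of Jag2 was -0.64 with an adjusted p of 0.0465, and the interaction was -1.08 with an adjusted p of 0.0223. In that fit the systemic controls had 79.4 to 11700 CPM of satellite-like signal and the remaining systemic cKO libraries 1.1 to 5.5 CPM. Genotype and satellite-like signal thus cannot be told apart there. With the satellite-like level as a covariate, 0 of 12424 genes were called in either comparison, against 235 and 31 without it. Jag1, the ligand mutated in Alagille syndrome, had 7.97 to 27.9 CPM over the 20 libraries, and its log2 fold changes lay between -0.11 and 0.39 in the 5 comparisons, none of them called. Jag2 made up 46.1% ± 1.85 of the ligand signal per kilobase in topical cKO and 41.9% ± 6.29 in topical control (SD, n = 5), and Jag1 19.8% ± 4.64 and 23.5% ± 8.67, so the make-up of the ligands overlapped between the genotypes.

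No member was called between the genotypes after systemic treatment, against 1.89% of all genes (235 genes), and none in the interaction, against 0.25% (31 genes). In the edgeR test at an unadjusted p under 0.05 the systemic comparison had 1 of 9, Jag2, against 15.3% of all genes, and the interaction had 2 of 9, Notch1 and Jag2, against 14% of all genes. The DESeq2 Wald test called 0 in the systemic comparison and Notch1 and Jag2 in the interaction, with adjusted p of 0.0345 and 0.0364. That tool called 4.91% of the genes it tested in the systemic comparison and 2.54% in the interaction. The interaction is built from the same libraries as the genotype comparisons.

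**Figure D4:**
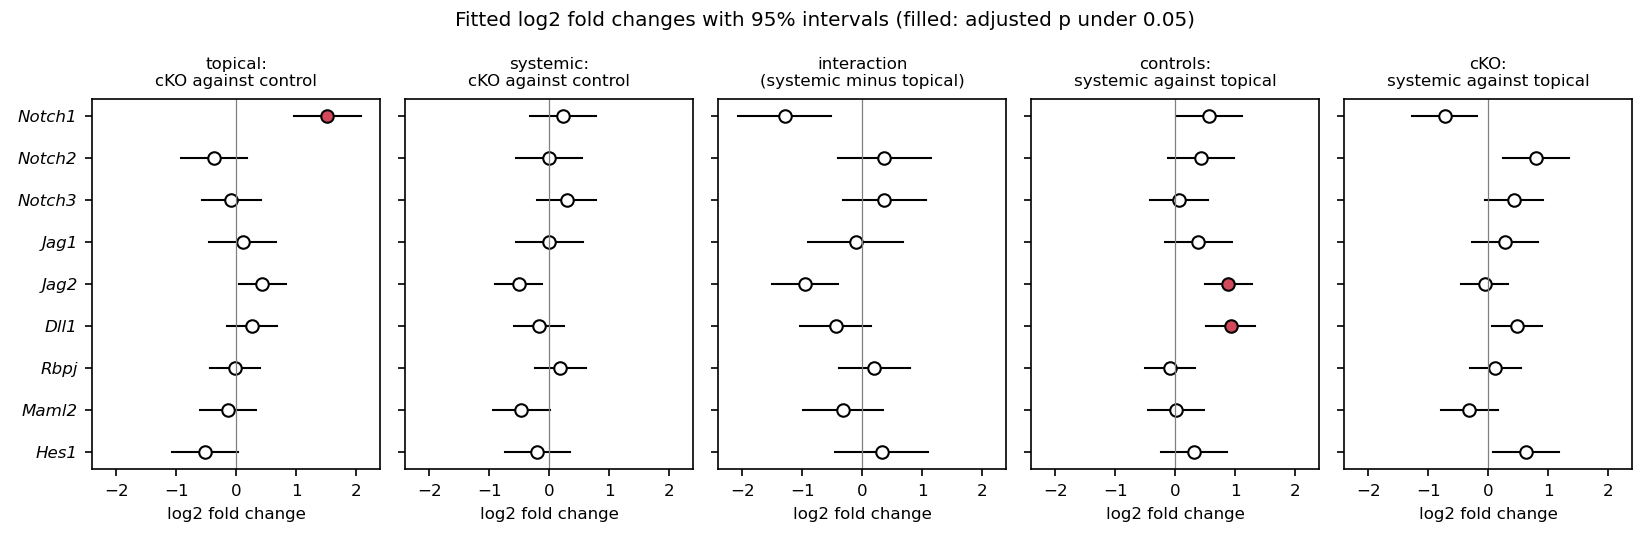
Log2 fold changes of the 9 members past the filter in the 5 comparisons, with 95% intervals, filled where the adjusted p is under 0.05. Notch1 is filled at 1.52 in the topical genotype comparison, Jag2 and Dll1 at 0.89 and 0.93 in the route comparison of controls, and the other 42 points are open.

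The nuclear effectors were low, and their values overlapped between all groups. Rbpj, the DNA-binding partner of all Notch receptors, had 4.28 to 9.38 CPM over the 20 libraries. Its group means were 6.12 ± 1.32, 6.02 ± 0.84, 5.74 ± 1.18 and 6.61 ± 2.07 CPM in topical control, topical cKO, systemic control and systemic cKO (SD, n = 5 each). The log2 fold changes of Rbpj lay between -0.09 and 0.19 in the 4 comparisons of groups. In the topical genotype comparison the 95% interval was -0.44 to 0.40, so a change of the size seen for Notch1 lay outside it. GENCODE lists the processed pseudogenes Rbpj-ps1 and Rbpj-ps3 on chromosomes 4 and 6, which are not rows of the table. How reads that match both Rbpj and a copy were assigned is not given in the sources used here. Maml2, a Mastermind coactivator, had 1.72 to 4.85 CPM, and its lowest group was systemic cKO with 2.82, 2.00, 1.72, 3.92 and 3.50 CPM in libraries 2, 4, 5, 6 and 7. Against systemic control, at 2.63 to 4.85 CPM, its log2 fold change was -0.47 ± 0.23 with an adjusted p of 0.334.

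Hes1, a canonical Notch target gene, was not called in topical cKO, where Notch1 was higher. Its level was 134, 74.4, 47.1, 58.0 and 51.3 CPM in the topical controls 1, 3, 5, 6 and 7 and 55.9, 56.0, 52.1, 45.5 and 45.0 CPM in the topical cKO libraries 2, 3, 4, 5 and 7. The cKO values lay close together, 3 of them within the control range and those of libraries 5 and 7 below the lowest control. The log2 fold change was -0.52 ± 0.26 (95% interval -1.07 to 0.03, adjusted p = 0.918), and without topical control 1 it was -0.18. The log2 ratio of Notch1 to Hes1 counts was -0.33 to 1.17 in topical control and 2.04 to 3.31 in topical cKO, without overlap, and 0.04 to 1.42 and 0.41 to 1.97 in systemic control and systemic cKO. Hes1 was higher after injection than after topical treatment in cKO by 0.64 ± 0.27 on the log2 scale, with an adjusted p of 0.146, and its 144 CPM in systemic control 1 was the highest value of the 20 libraries.

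Hey1, a repressor related to the Hes family, was hardly detected. It had 0 to 20 reads per library, and 0 reads in topical cKO 7 and in systemic cKO 2, where 3 reads, the limit that a count of 0 allows, correspond to 0.261 and 0.264 CPM. Its group means lay between 0.18 CPM in systemic control and 0.36 CPM in topical control, and a difference between groups was not detectable at this depth.

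Of 61 other genes of the pathway, 51 passed the filter. The 10 that did not were the receptor gene Notch4, the ligand or ligand-like genes Dll3, Dll4, Dlk1 and Dner, the Deltex gene Dtx1, and the target genes Hes5, Hes7, Hey2 and Heyl. In the topical genotype comparison 0 of the 51 were called by edgeR, 5 had an unadjusted p under 0.05 (5.66% of all genes did), and the median log2 fold change was 0.11 against 0.02 over all genes. Target genes past the filter, beside Hes1, were Nrarp and Hes6. Nrarp, a feedback inhibitor induced by Notch, averaged 10.5 ± 1.66 CPM in topical control and 10.5 ± 3.57 CPM in topical cKO, with a log2 fold change of -0.01 ± 0.19. Hes6 had a log2 fold change of 0.18 ± 0.22. The proteases that cut the receptor showed small values in this comparison, with Adam10 at -0.31 ± 0.16, Adam17 at -0.23 ± 0.13, and the gamma-secretase genes Psen2, Ncstn, Aph1a, Aph1b, Aph1c and Psenen from -0.32 to 0.19. The Fringe genes Lfng, Mfng and Rfng, which encode sugar transferases that tune ligand choice, lay between 0.12 and 0.33, the 4 Deltex genes past the filter between -0.29 and 0.13, and Maml1 and Maml3 at 0.45 and 0.18.

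Between the routes in controls, 9 of the 51 pathway genes were called, 7 higher and 2 lower after injection, which is 17.6% against the 18.3% of all genes. Those with the smallest adjusted p included Mib2, a ubiquitin ligase for Notch ligands, at 0.99 ± 0.16 (adjusted p = 0.000309); the corepressor gene Ctbp1 at -0.70 ± 0.12; the gamma-secretase gene Aph1a at -1.14 ± 0.23; the acetyltransferase gene Ep300 at 0.82 ± 0.18; and Tle2, a Groucho corepressor, at 1.39 ± 0.39. The pathway's genes thus moved in both directions, at about the rate of all genes. In cKO 2 of the 51 (3.92%) were called between routes, below the 9.22% of all genes: the protease gene Adam17 was higher after injection by 0.53 ± 0.13 (adjusted p = 0.00982) and Ctbp1 was lower, at -0.42 ± 0.12 (adjusted p = 0.0252). In the systemic genotype comparison and the interaction 0 of the 51 were called by edgeR, with 6 at an unadjusted p under 0.05 in each, where all genes had 15.3% and 14% at that threshold. The DESeq2 Wald test called 1, Dtx3, in the systemic comparison.

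**Figure D5:**
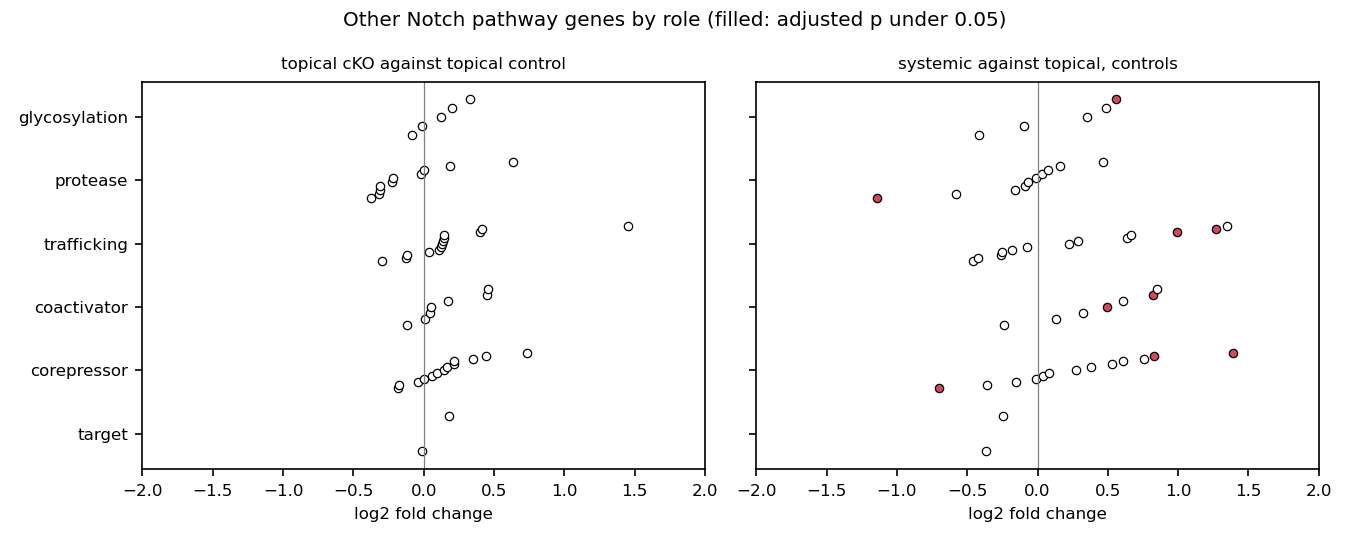
Log2 fold changes of 50 other Notch pathway genes past the filter by role (all but the ligand-like gene Dlk2), for topical cKO against topical control (left) and systemic against topical in controls (right), filled where the adjusted p is under 0.05. No point is filled on the left, and 9 are filled on the right, 7 above and 2 below 0.

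Genes linked to Notch in keratinocytes were also examined, as a list of 9 taken from general knowledge that included Cdkn1a, Klf4, Tslp, Wnt4, Krt1 and Ivl. In the topical genotype comparison 0 of the 9 were called and 3 had an unadjusted p under 0.05, against 5.66% of all genes. Cdkn1a, which encodes the cell-cycle inhibitor p21 and is a target of both Notch and p53 in keratinocytes, averaged 645 ± 105 CPM in topical control and 940.1 ± 281 CPM in topical cKO, with a log2 fold change of 0.54 ± 0.25 and an adjusted p of 0.839. Tslp, the cytokine that rises when epidermal Notch signalling is lost, had 5.30 to 10.2 CPM in topical control and 10.7 to 31.6 CPM in topical cKO. The groups did not overlap, but with a log2 fold change of 1.11 ± 0.53 its adjusted p was 0.881. Krt1, an early differentiation keratin, was at -0.91 ± 0.41 with an adjusted p of 0.842. Between routes, Cdkn1a was higher after injection in controls by 0.89 ± 0.25 (adjusted p = 0.0174), and Ivl, which encodes the cornified-envelope protein involucrin, was higher after injection in cKO, at 21.3 CPM in topical and 42.5 CPM in systemic cKO on average (adjusted p = 0.0165). In that cKO comparison 4 of the 7 suprabasal genes, Ivl among them, were called higher, against 9.22% of all genes called in either direction.

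Notch1 ranked 13th by p among the 16 genes called higher in topical cKO. The other 15 included Ccng1, a p53 target gene, at 1.01 (adjusted p = 0.0100), the DNA repair genes Mgmt at 1.61 and Polk at 1.19, and the interferon-responsive genes Ifi27l2a at 2.51 and Bst2 at 2.00, all picked after their values were seen. The 3 genes whose log2 CPM tracked Notch1 most closely over the 20 libraries were Dcxr (Pearson r = 0.854), Mcam (0.805) and Ddit4l (0.782). All 3 were also called in topical cKO, and within the groups, after the group means were removed, r was 0.596, 0.346 and 0.353. For Jag2 the closest were Cnksr1 (0.934), Sipa1 (0.906) and Zfp653 (0.900), and for Dll1 they were Sf3b1 (0.929), Arid5a (0.899) and Tbc1d8 (0.886). For these 6 the values after the group means were removed were 0.809 to 0.892. Each is 1 correlation pooled over the 20 libraries, and none was computed in a single group. All such values describe 20 libraries that share depth and composition, and genes were picked as the highest of 12424.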

How the data were processed

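RNA of sorted keratinocytes from 20 mice was made into SmartSeq II libraries, per the labels' protocols. The authors deposited raw read counts per gene, whole numbers without normalization. The submitters' processing notes name STAR, featureCounts, GRCm38 and mm10; versions and strand settings are not given in the sources used here.

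All 20 libraries were fitted together in edgeR 4.0.16 (R 4.3.3): TMM scaling, filterByExpr (minimum count 10, minimum total 15; 12424 genes kept), robust quasi-likelihood fits (1 coefficient per group, two-sided tests), adjusted by Benjamini-Hochberg over all genes tested and called under 0.05. CPM use TMM-scaled totals. The groups and comparisons were those in the labels; p-values measure the spread between mice. Totals of 11.6 to 50.1 M counts set the counting error, and no libraries within a group agreed within sampling noise (smallest chi-square per degree of freedom 26.9). Exon lengths and overlaps came from GENCODE M21, promoters from RefSeq GRCm38.p6. Scripts were tested on simulated data.

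The members, the gene lists and the alternatives were chosen with earlier results of these data known. All members were named; other pathway genes were named as the up to 6 called with the smallest adjusted p per comparison and by family, and likeness as the 3 highest correlations. A few genes that these rules would name are not reported here. Alternatives were scaling by DESeq2's size factors, Wald tests of DESeq2 1.42.0, limma 3.58.1 (voom, quality weights), no filter, a mean of at least 5 CPM, only the libraries compared, the replicate number as a block, covariates for sex, satellite-like level and mitochondrial percent, and leaving out each library.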

Additional observations from a re-analysis of the deposited data

Results flagged for a closer look

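Of 40 values by gene and group (10 genes in 4 groups of 5), 1 had a library that stood apart from the rest of its group by Dixon's test at the 95% level, and chance alone flags about 1 in 20 groups. This was Notch2 in systemic cKO 6, at 92.3 CPM against 46.2 CPM in the next library of that group, a gap of 0.782 of the whole range where 0.71 is the critical value for 5 libraries.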

How the results depend on the processing

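The 3 called member effects kept their direction in every alternative run. Notch1 in topical cKO ran from 1.30 to 1.70 and kept its call in 9 of 10 alternatives other than leaving out a library; Jag2 and Dll1 between the routes in controls kept theirs in 9 of 10, all but the satellite-like covariate. With the replicate block, Notch1 was 1.44 with an adjusted p of 0.235, and the number of members called in topical cKO was 0. Same-numbered libraries correlated at -0.314 to 0.338, and in each comparison 1 of the 3 or 4 shared numbers correlated best with its own. So few pairs cannot decide whether a number marks a shared litter, cage or day, which the labels do not state. The block fit therefore remains a limit on the Notch1 call. Members called moved as follows: between routes in controls to 0 with the satellite-like covariate and 3 with limma voom, which added Notch1; between routes in cKO to 1 with sex or the satellite-like level as a covariate and 2 with the DESeq2 Wald test; and in the interaction to 1 with mitochondrial percent as a covariate and 2 with the DESeq2 Wald test. Leaving out single libraries gave 0 to 1 members called in topical cKO, in systemic cKO, in the interaction and between routes in cKO, and 2 in every such fit between routes in controls. The cause of these moves was not tested.

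Of the 42 member effects not called, 16 changed sign in at least 1 alternative and 6 were called in at least 1. For the 51 other pathway genes, the 9 calls between routes in controls became 1 with the satellite-like covariate, 18 with mitochondrial percent and 19 with limma voom. The 2 calls between routes in cKO became 5 with mitochondrial percent, 4 with the DESeq2 Wald test, and 1 with all genes with a count, with the replicate block, with only the libraries compared, and without any one of 5 single libraries. The 0 calls in systemic cKO became 4 with mitochondrial percent, 2 with limma voom, 1 with the DESeq2 Wald test, 1 with the replicate block and 3 without systemic cKO 2; the 0 in the interaction became 1 with mitochondrial percent and 1 without systemic cKO 2. Among the 10 members depth limits Hey1, at 0 to 20 reads per library.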
